A study of Bos taurus with 6 samples.

Results

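The transcriptome of control bovine embryos at the late morula stage is described here from 2 of the 6 libraries of the series, those labelled as controls. These embryos came from in vitro fertilization, had been injected with a nonspecific small interfering RNA (siRNA), and were collected at day 6 as pools of 15 embryos per library. The other 4 libraries, from embryos injected with an siRNA against NOTCH1 or RBPJ, serve the study's question of what the NOTCH pathway does in the early embryo. They were not set against the controls here. The genes were ordered by the mean of both control libraries, over 15314 named genes. The embryos of all groups were produced in vitro and injected, and GFP and RFP messenger RNA was added before extraction, so the values describe injected embryos. A pool of whole embryos gives an average over all of their cells.

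The morula is the ball of cells that forms after the first cleavage divisions. In cattle it follows the start of major embryonic transcription, and it compacts as E-cadherin contacts tighten and the outer cells become polarized. Outer cells go on to the trophectoderm, which pumps fluid into the blastocyst cavity and later forms the placenta. Inner cells go on to the inner cell mass, which yields the epiblast and the hypoblast that lines the yolk sac. Such embryos live on pyruvate, amino acids and lipid stores at first and take up more glucose as the blastocyst forms.

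Values are the authors' scaled counts, given for each gene as replicate 1 and then replicate 2. They were not divided by transcript length, so a long transcript draws more reads than a short one at the same number of molecules, and the order of genes is an order of reads. A mean of 10 scaled counts or more was seen for 12050 of the named genes (78.7%), 8451 had 100 or more, 2331 had 1000 or more and 80 had 10000 or more. The median gene stood at 141 scaled counts. At the other end, 431 genes (2.81%) were at 0 in both libraries. The libraries held about 9800000 and 9600000 reads. For a gene at 0, the expected count could still have been up to 3 reads, or 3.17 and 3.27 scaled counts. This limit covers counting error only.

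The libraries followed each other closely above about 100 scaled counts and less so below. Of the genes with a mean of at least 10, 569 (4.72%) were at least 2-fold apart between the libraries on the log2(value + 1) scale, and 62 (0.515%) at least 4-fold. The share at least 2-fold apart was 14.5% for means of 10 to under 100, 0.768% for means of 100 to under 1000, and 0.0429% for means of at least 1000. The single gene in the top class was HSPA1A, an inducible heat shock protein, with 956 and 2607 scaled counts. A level under 100 scaled counts is therefore read below with both libraries in view.

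The strongest signals came from respiration, protein synthesis and the contractile cytoskeleton. COX1, a mitochondrially encoded subunit of cytochrome oxidase, was first with 111666 and 84248 scaled counts, and EEF1A1, which brings aminoacyl transfer RNA to the ribosome, was second with 94881 and 96641. In replicate 2 their order was the other way round. ACTB, cytoplasmic beta-actin, had 49575 and 49774 scaled counts, and COX3 had 48105 and 45653. FN1 came next: fibronectin, a matrix glycoprotein that cells bind through integrins, had 37166 and 38800.3 scaled counts. The neighbours in this order often overlapped: among the 30 highest genes, 21 of 29 neighbouring pairs had ranges that met, and 28 of the 30 were among the 30 highest of each library by itself.

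**Figure D1:**
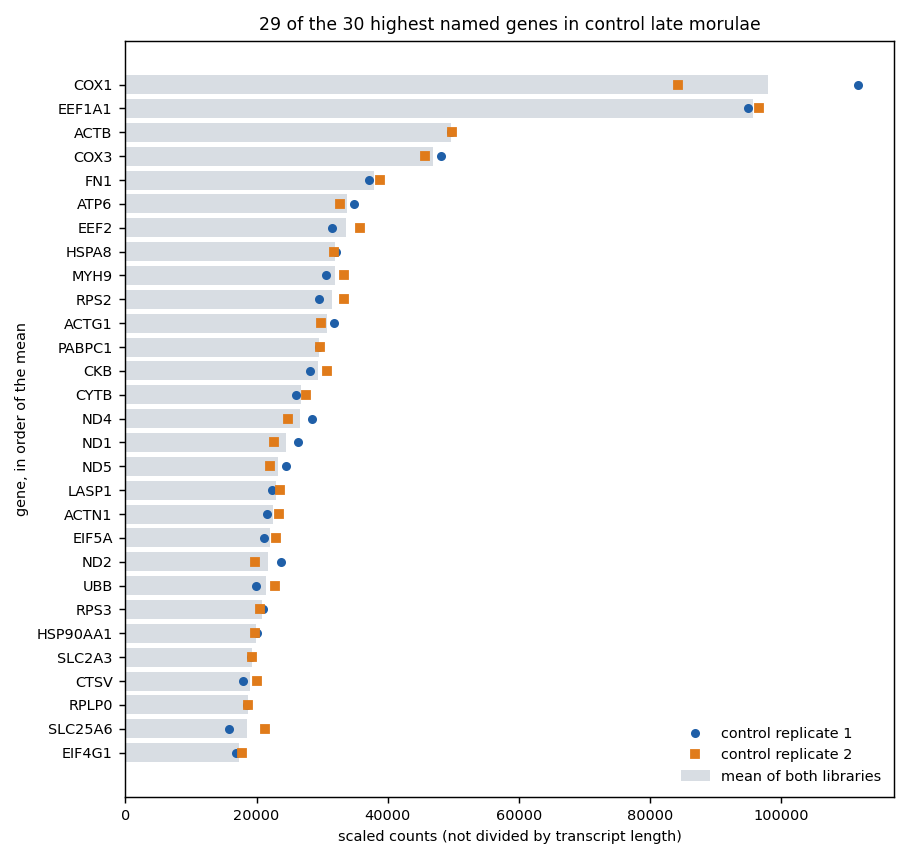
Scaled counts (horizontal axis, from 0) of 29 of the 30 highest named genes, in order of the mean: grey bars give the mean, circles control replicate 1 and squares control replicate 2. COX1 and EEF1A1 stand apart from the rest, and EIF4G1, the last of the 30, had 16924 and 17745 scaled counts.

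The 13 mitochondrially encoded genes held 3.81% and 3.28% of the named total in the libraries, and 8 of them were among the 30 highest. Cytosolic ribosomal protein genes, 81 by symbol, held 5.65% and 5.39%. RPS2, a protein of the small ribosomal subunit, led them with 29592 and 33369.6 scaled counts. Translation factors held 3.29% and 3.36%, with EEF2, the translocation factor, at 31434 and 35741 scaled counts and EIF5A, an elongation factor that carries hypusine, at 21088 and 22995. PABPC1, the cytoplasmic poly(A)-binding protein, had 29552 and 29645 scaled counts. The ribosomal proteins RPS3 and RPLP0 were also among the 30 highest, with 20988 and 20541 scaled counts for RPS3 and 18500.5 and 18775 for RPLP0. Beside COX1 and COX3, the mitochondrial genes there were ATP6 of ATP synthase, at 34889.9 and 32798, CYTB of complex III, at 26018 and 27528, and ND4, ND1, ND5 and ND2 of complex I. ND4 had 28490.2 and 24864 scaled counts and ND2, the lowest of these, had 23697 and 19823.

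Beside ACTB, the cytoskeleton held several of the 30 highest places. MYH9, the heavy chain of nonmuscle myosin, had 30562 and 33356 scaled counts, ACTG1, cytoplasmic gamma-actin, had 31805 and 29827, and ACTN1, an actin crosslinker, had 21586 and 23412. LASP1, an actin-binding protein, had 22429.6 and 23603 scaled counts. The chaperones HSPA8 and HSP90AA1 had 32155 and 31854 and, for the second, 20032 and 19716 scaled counts. Housekeeping was not all of this list. CKB, the brain-type creatine kinase that buffers ATP, had 28181 and 30717 scaled counts and SLC2A3, a glucose transporter, had 19200.1 and 19345. CTSV, a lysosomal cysteine protease, had 17936 and 20098 scaled counts. SLC25A6, which exchanges ADP and ATP across the inner mitochondrial membrane, had 15881 and 21243 scaled counts, and UBB, a ubiquitin gene, had 19971 and 22842.

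The signal was spread over many genes. The 100 highest genes held 18.4% and 18.2% of the named total, and 840 and 836 genes were needed to reach 50%. Ribosomal protein, actin, ubiquitin and elongation factor genes have near-identical copies, between which the authors' counting could have divided reads, so their levels are uncertain.

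To describe classes, 15314 genes were read against 29 lists of lineage, signalling and metabolic genes with 805 measured members, of which 696 had a mean of at least 10 scaled counts. The middle of a list is set beside 141 scaled counts, the median over all named genes. List medians ran over several orders of magnitude: 23212 scaled counts for mitochondrially encoded genes, 2155 for nuclear-encoded respiratory chain genes, 1434 for junction and polarity genes, 37.8 for oocyte transcripts and 8.02 for factors of later germ layers. Lists chosen for a function in this embryo hold genes that were picked as likely to be present.

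**Figure D2:**
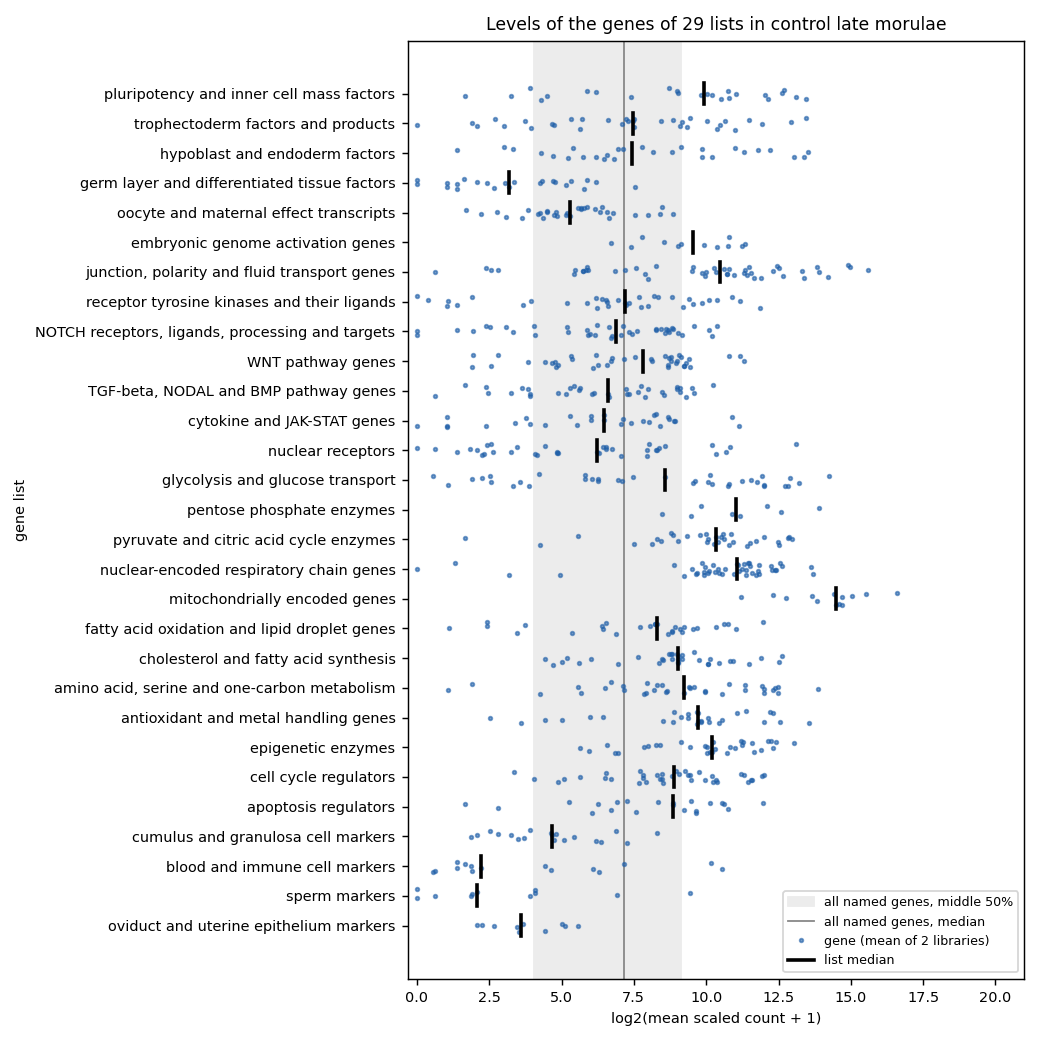
Mean scaled count of each member of 29 gene lists, as log2(mean + 1), with a black bar at each list's median; the grey band and line give the middle 50% and the median of all named genes. Respiratory chain, junction and pluripotency lists lie to the right of the line, and markers of later germ layers, follicle cells, blood, sperm and oviduct to its left.

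Pluripotency factors were among the strongest transcription factors. POU5F1, the POU-domain factor of pluripotent cells, was the highest of 140 listed transcription factors with 10911 and 11593 scaled counts, which placed it at rank 67 of all named genes. ESRRB, an orphan nuclear receptor that supports self-renewal in mouse, was second with 8321 and 9349 scaled counts. GATA6, the early hypoblast factor, came next with 7103 and 9492, and KLF4, TBX3 and KLF5 followed. KLF4, a Krüppel-like factor, had 5958 and 7218 scaled counts. TBX3, a T-box factor, had 6128 and 6449.7 scaled counts, and KLF5 had 4611 and 4325. In a pool of embryos, fewer cells of a type and less RNA per cell cannot be told apart, so these levels do not say which cells held them.

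Lower in the list, SALL4, a zinc finger partner of POU5F1, had 3663 and 4706 scaled counts. SOX15, a SOX family factor, had 1805 and 2379, and ZFP42, a marker of naive mouse stem cells, had 1903 and 1644. DPPA4 and DPPA3, early embryo chromatin proteins, had 1608 and 1857 scaled counts in the case of DPPA4 and 1488 and 1448 in the case of DPPA3. OTX2, a homeobox factor of the primed epiblast, had 1034 and 1049 scaled counts and PRDM14 had 814 and 972. KLF17, a Krüppel-like factor of the early embryo in human, had 390.3 and 642 scaled counts. NANOG, a homeodomain factor of the epiblast, stood near the median of all named genes, with 174 and 159 scaled counts. FGF4, the growth factor that epiblast cells send to hypoblast precursors, had 67.9 and 46.5.

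In the NODAL branch, the ligand, an inhibitor and a coreceptor were low. Receptors and SMAD factors of the TGF-beta family are given below. NODAL had 2.12 and 2.17 scaled counts, LEFTY2, its inhibitor, had 9.52 and 7.61, and TDGF1, its coreceptor, had 12.7 and 15.3. LIN28A, which blocks let-7 maturation, had 544 and 466 scaled counts, while its paralogue LIN28B had 27.5 and 15.2. Of the 24 measured genes of this list, 22 had a mean of at least 10 and 12 one of at least 1000 scaled counts. Of all named genes, 78.7% and 15.2% reached these levels. Among the 22 members with a mean of at least 10, 1 was at least 2-fold apart between the libraries. Over all named genes with such a mean the share was 4.72%.

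Trophectoderm genes ran from a strong early set to several placental products that were low. A pair of keratins of simple epithelia led, with KRT8 at 11997 and 10629.9 scaled counts and KRT18 at 9355 and 6298. Other keratins of simple epithelia were far lower, with KRT7 at 262 and 437 and KRT19 at 117 and 150.3 scaled counts. TFAP2C, an AP-2 factor, had 3658 and 4079 scaled counts, and GATA2 had 2432 and 3267. The TEAD factors bind DNA for the Hippo pathway: TEAD3 had 1589 and 1661 scaled counts and TEAD4 had 1307 and 1535, while TEAD1 had 195 and 163 and TEAD2 had 199.9 and 165. Their coactivators YAP1 and WWTR1 were both present. YAP1 had 471 and 455 scaled counts and WWTR1 had 1236 and 1437. CDX2, the homeobox factor that defines the trophectoderm in mouse, had 654 and 744 scaled counts, and GATA3 had 577 and 515.

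Several later products were low or absent. SSLP1, of the same list, had 141 and 170 scaled counts, near the median of all named genes. IFNT, interferon tau, by which the ruminant conceptus signals pregnancy, had 21.2 and 27.2 scaled counts, and the row named IFNT2 had 11.6 and 13.1. Interferon tau genes exist in near-identical copies that can share reads. The pregnancy-associated glycoproteins PAG2 and PAG11 had 3.91 and 7.05 scaled counts for PAG2 and 1.06 and 4.36 for PAG11. HAND1 and EOMES, trophoblast factors in mouse, had 4.23 and 9.81 scaled counts for HAND1 and 4.22 and 2.18 for EOMES. ELF5, a trophoblast stem cell factor in mouse, was at 0 in both libraries. TKDP1, a trophoblast Kunitz domain protein, had 175 and 19.7 scaled counts and was more than 4-fold apart between the libraries.

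TFAP2A had 31.1 and 20.01 scaled counts, far below its paralogue TFAP2C. Of 34 genes, 29 had a mean of at least 10, beside 78.7% of all named genes. TKDP1 alone of these was at least 2-fold apart, beside 4.72% of all named genes with such a mean. PTGS2, the inducible prostaglandin synthase, had 791 and 504 scaled counts, and PLAC8 had 657 and 496.

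Hypoblast genes were uneven. Of 28 measured members, 17 had a mean of at least 100 scaled counts, beside 55.2% of all named genes. A mean of at least 1000 was seen for 8, beside 15.2% of all named genes. GATA6 stood at rank 114, while the factors that act after it in mouse stood below the median of all named genes: SOX17 had 91.9 and 133 scaled counts, GATA4 had 59.1 and 46.9, FOXA2 had 35.9 and 45.8 and HNF4A had 10.6 and 26.2. PDGFRA, a growth factor receptor of the hypoblast in mouse, had 918 and 945 scaled counts. LRP2, a large endocytic receptor, had 13058 and 10348 scaled counts, and CUBN, its partner in uptake, had 5.28 and 8.74.

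The basement membrane was present in part. SPARC, a collagen-binding matrix protein, had 9024 and 12479 scaled counts. Collagen IV was there as COL4A1, at 4415 and 5121, and as COL4A2, at 784 and 1063 scaled counts. The laminin chains LAMB1 and LAMC1 had 3379 and 3656 scaled counts in the case of LAMB1 and 1242 and 1107 in the case of LAMC1, while LAMA1 had 353 and 214. NID2, a nidogen that links laminin to collagen IV, had 2748 and 2309 scaled counts in close agreement. Its paralogue NID1 had 143 and 32.8, more than 4-fold apart between the libraries. The plasma protein genes of the yolk sac were uneven. APOA1 had 110.1 and 166 scaled counts and APOE had 99.4 and 149, near the median of all named genes, while APOB had 3.17 and 0.

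**Figure D3:**
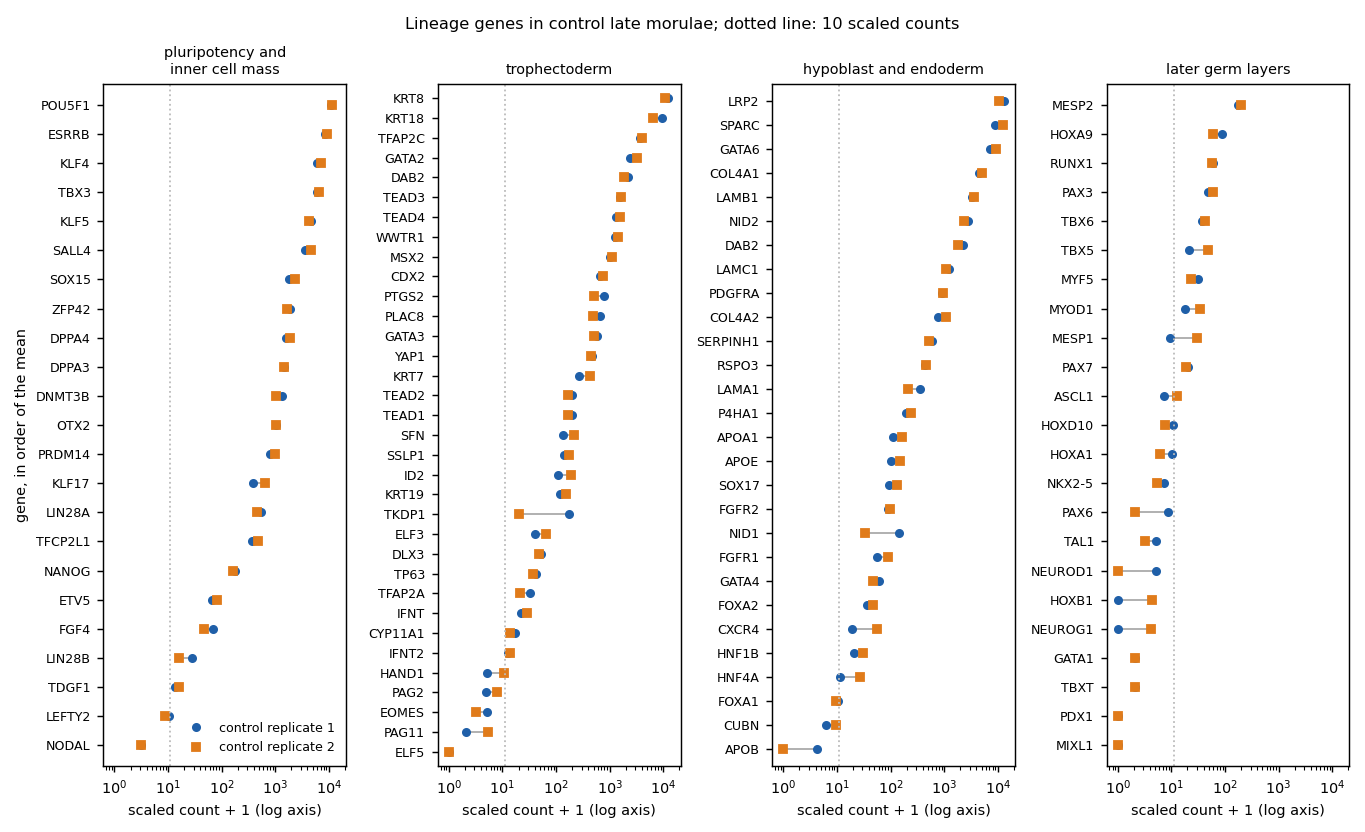
Scaled count + 1 on a log axis for members of 4 lineage lists; circles are control replicate 1, squares control replicate 2, the grey line joins them, and the dotted line marks 10 scaled counts. Each of the first 3 panels runs from a few reads to about 10000 scaled counts, while MESP2, the highest of the later germ layer factors, had 171 and 201.

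Factors of later germ layers were mostly low. Of 23 measured genes, 10 had a mean of at least 10 scaled counts, against 78.7% of all named genes, and 1 had one of at least 100. MESP2, a somite factor, was the highest with 171 and 201 scaled counts. HOXA9 had 86.6 and 57.8, RUNX1, a blood factor, had 58.2 and 56.2, and PAX3, a factor of neural crest and muscle, had 47.5 and 60.03. TBXT, the primitive streak factor brachyury, had 1.06 and 1.09 scaled counts, and MIXL1 and PDX1, of mesendoderm and pancreas, were at 0 in both libraries. These values describe reads on these genes and not whether a protein was made.

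Oocyte transcripts were still detectable but low. None of 33 measured members reached a mean of 1000 scaled counts, 6 reached 100, and 29 reached 10. Of all named genes, 15.2% reached 1000, 55.2% reached 100 and 78.7% reached 10. CNOT6L, a deadenylase subunit that trims stored messages, had 453 and 464 scaled counts. AURKC, an aurora kinase of meiosis, had 338 and 362, and CCNB3, a B-type cyclin, had 324 and 358. TLE6, of the subcortical maternal complex, had 289.5 and 219 scaled counts. The factors that the oocyte sends to its follicle cells were lower: GDF9 had 14.8 and 12.0 scaled counts and BMP15 had 15.9 and 59.8. The zona pellucida proteins ZP2, ZP3 and ZP4 had 31.5 and 39.0 scaled counts for ZP2, 62.4 and 79.5 for ZP3 and 21.1 and 34.9 for ZP4. DAZL, a germ cell RNA-binding protein, had 7.39 and 0.

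The libraries often differed in this class. Of its 29 members with a mean of at least 10, 8 were at least 2-fold apart, where the share over all tested genes was 4.72%. Over all genes with means of 10 to under 100 scaled counts, the share was 14.5%. The cause of the differences in this class was not tested. The sign was higher in replicate 2 for 23 of 29, against 49.9% of all tested genes, with a median difference of 0.42 on the log2(value + 1) scale. MOS, the kinase that holds the egg in meiosis, had 29.6 and 130.4 scaled counts and was more than 4-fold apart. ACCSL had 22.2 and 77.4, and LHX8, an oocyte homeobox factor, had 16.9 and 52.0.

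Of 24 listed genes used as signs of embryonic genome activation, 12 were measured and the others were not analysed here. All 12 had means above 100 scaled counts, beside 55.2% of all named genes with means of at least 100. EIF1AX, an initiation factor, had 2392 and 2452 scaled counts, and PSMB5, a proteasome subunit, had 2885 and 2332. ZSCAN4, a marker of the activation stage in human and mouse, had 367 and 377 scaled counts. DPPA2, which acts with DPPA4, had 1043 and 919. MYC, a growth factor-induced transcription factor, had 93.0 and 115 scaled counts, the lowest of the list.

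Compaction genes were high. CDH1, the E-cadherin through which morula cells adhere, had 10154 and 11248 scaled counts. Its cytoplasmic partners followed: CTNND1 had 5739.7 and 5511 scaled counts, CTNNA1 had 5200.4 and 4851 and CTNNB1, beta-catenin, had 2664 and 2453. Other cadherins were far lower, with CDH3 at 225 and 251 and CDH2, N-cadherin, at 76.8 and 38.9 scaled counts. EZR, ezrin, which links the apical membrane to actin, had 14338 and 14776 scaled counts, and MSN, moesin, had 9221 and 10892.

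Tight junction genes were led by 1 claudin. CLDN6 had 14382 and 16516 scaled counts and CLDN4 had 2635 and 2549, while CLDN3 had 63.4 and 42.4 and CLDN1 had 0 and 12.0. The scaffold TJP1 had 1880.1 and 2136 scaled counts. F11R, the adhesion molecule JAM-A, had 5556 and 6107 scaled counts and OCLN, occludin, had 1026 and 838. In the apical polarity complex, PARD3 had 1274 and 1326 scaled counts, PRKCI, the atypical protein kinase C, had 1178 and 872, and PARD6B had 341 and 276. Of desmosomes, JUP, plakoglobin, had 2981 and 3500.4 scaled counts, DSG2 had 2878 and 2598 and DSP had 1777 and 1781, while the desmocollins DSC2 and DSC3 had means below 100.

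Genes known for filling the blastocyst cavity already had reads at this stage. The beta subunits of the sodium pump were ATP1B3, with 3202 and 2832 scaled counts, and ATP1B1, with 206 and 171. AQP3, a water and glycerol channel, had 5587 and 7440.4 scaled counts. The other aquaporins were lower: AQP11 had 286 and 215, AQP7 had 40.1 and 73.1 and AQP1 had 1.06 and 0 scaled counts. Of 48 genes in the list, 44 had a mean of at least 10 and 28 had one of at least 1000. Of all named genes, 78.7% and 15.2% reached these levels. Of the 44, 2 were at least 2-fold apart, DSC3 and GJA1, near the share of 4.72% over all genes with such a mean. GJA1, connexin 43, had 71.8 and 32.7 scaled counts, and GJB5, a connexin of trophoblast and skin, had 2477 and 3209.

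Receptors were read family by family. LRP2 was the highest of 68 listed membrane receptors, followed by TFRC, the transferrin receptor for iron uptake, with 6259 and 5741 scaled counts. FGFR4 came next with 3323 and 4149.9 scaled counts. FGFR3 had 1977 and 1860.1 scaled counts, and the receptors that carry the FGF4 signal in mouse embryos were low: FGFR1 had 55.7 and 86.9 and FGFR2 had 89.0 and 97.2. Among the EGF receptors, ERBB2, which has no ligand of its own, had 2126 and 2474 scaled counts, EGFR had 327 and 257 and ERBB3 had 120.3 and 127. HBEGF, a ligand of EGFR, had 295 and 353 scaled counts. DDR1, a collagen receptor, had 1025 and 1155 scaled counts.

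The IGF system was one of receptors with little ligand. IGF1R had 645 and 715 scaled counts, and IGF2R, which clears IGF2 and binds lysosomal enzymes, had 1452 and 1225. INSR, the insulin receptor, had 39.1 and 31.8 scaled counts, below the median of all named genes. IGF1 was at 0 in both libraries and IGF2 had 13.3 and 10.4. For stem cell factor, both sides were there: KIT had 805 and 702 scaled counts and KITLG had 210.3 and 193. MET had 513 and 386 scaled counts, and HGF, its ligand, had 2.17 and 3.36. None of the 29 genes of this list with a mean of at least 10 was 2-fold apart between the libraries. Over all named genes with such a mean the share was 4.72%, so few would be looked for among 29.

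NOTCH receptors stood near or below the median of all named genes. NOTCH2 had 193 and 129 scaled counts, NOTCH1 had 69.6 and 139.8, NOTCH3 had 46.4 and 69.9 and NOTCH4 had 34.8 and 38.2. JAG2, a ligand on the sending cell, had 1186 and 1169.6 scaled counts, JAG1 had 281 and 335, and DLL1 and DLL4 had means below 10. ADAM10, the protease of the first cut, had 1519 and 1143 scaled counts, and NCSTN, a gamma-secretase subunit, had 1115 and 1079. APH1A, another subunit of that complex, had 719 and 792 scaled counts. RBPJ had 447 and 391 scaled counts. Among targets HES1 had 275 and 345 and HEY1 had 116 and 163 scaled counts, while HES5 and MFNG, a sugar transferase that modifies NOTCH, were at 0 in both libraries. HES7 had 8.22 and 62.5 and DTX3 had 27.0 and 119 scaled counts, each more than 4-fold apart, so their levels rest on replicate 2.

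WNT receptors of the FZD family ran on both sides of the median of all named genes. FZD3 had 587 and 525 scaled counts, FZD4 had 429.8 and 416, FZD7 had 368 and 454 and FZD10 had 396 and 413. FZD1 had 162 and 206 scaled counts, and FZD2, FZD5, FZD6 and FZD8 had means below 100. The coreceptors LRP5 and LRP6 had 476 and 411 scaled counts for LRP5 and 287 and 254 for LRP6. Of the ligands, WNT6 had 296 and 266 scaled counts and WNT8A had 158 and 128, and WNT3, WNT3A, WNT7B and WNT10B had means below 10. AXIN2, a feedback inhibitor, had 476 and 531 scaled counts. The destruction complex of beta-catenin had GSK3A at 2257 and 2299, AXIN1 at 1605 and 1908 and APC at 725 and 674 scaled counts. LEF1, a nuclear effector, had 9.10 and 44.7 and was more than 4-fold apart, while its paralogues TCF7L1 and TCF7L2 were even, at 655 and 596 scaled counts for TCF7L1 and 500.0 and 502 for TCF7L2.

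For the TGF-beta family, TGFB1 was the leading ligand with 1227 and 1164 scaled counts, and BMP4 had 483 and 597. TGFBR2, the receptor that binds TGFB1, had 27.0 and 42.4 scaled counts, and TGFBR1 had 252 and 172. The activin and BMP receptors ACVR2B and ACVR1 had 657 and 784 scaled counts for ACVR2B and 636 and 611 for ACVR1. SMAD1 had 836 and 682 scaled counts, SMAD2 had 537 and 469 and the inhibitor SMAD7 had 537 and 554. ID1 and ID3, targets of BMP signals, had 57.1 and 74.1 scaled counts for ID1 and 47.6 and 51.0 for ID3.

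The JAK-STAT genes were uneven. STAT3 had 2204 and 2326 scaled counts and IL6R, the interleukin-6 receptor chain, had 2007 and 1796. IL6ST, the shared signalling chain, had 337 and 283 scaled counts, and IL6 itself had 261 and 252. LIF had 1.06 and 1.09 scaled counts, at the level of about 1 read, and LIFR had 62.3 and 29.5. The interferon receptors were present by 1 chain: IFNAR1 had 177 and 159 scaled counts and IFNAR2 had 1.06 and 1.09. CSF2RA, the binding chain of the GM-CSF receptor, was at 0 in both libraries and CSF2RB had 2.11 and 0. IL2RG, the common cytokine chain, had 395 and 575 scaled counts. STAT5B had 458 and 482 scaled counts.

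**Figure D4:**
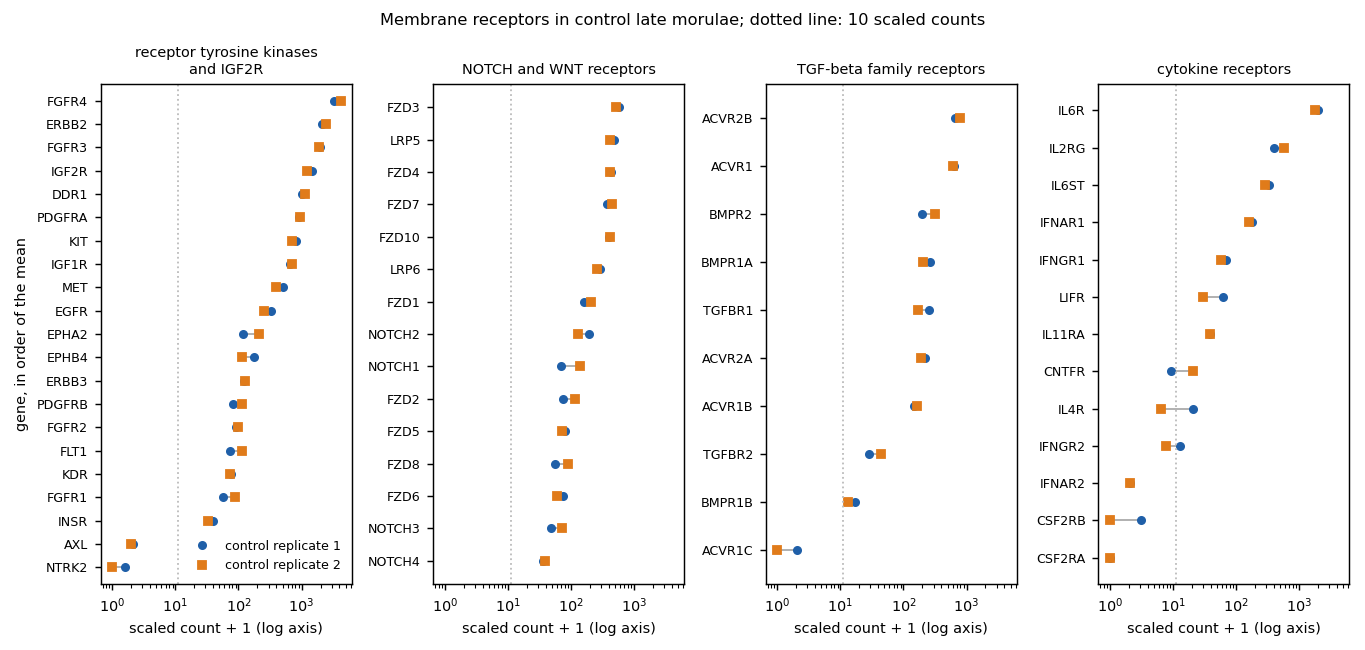
Scaled count + 1 on a log axis for membrane receptors of 4 families; circles are control replicate 1, squares control replicate 2, and the dotted line marks 10 scaled counts. FGFR4 and ERBB2 lead the tyrosine kinases and IL6R the cytokine receptors, and IFNAR2, CSF2RA and CSF2RB lie at the left edge.

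Nuclear receptors were uneven, and paralogues differed. RXRB, a retinoid X receptor, had 1569 and 2009 scaled counts, and NR1H2, an oxysterol receptor, had 1569 and 1694. ESRRA had 1126 and 1476 scaled counts and PPARD, a fatty acid sensor, had 1047 and 1279. Its paralogues PPARA and PPARG had means below 10, as had RXRG, a paralogue of RXRB. NR4A1, an orphan receptor induced by growth signals, had 325 and 444 scaled counts, and RARA, a retinoic acid receptor, had 267 and 351, while RARB had 84.7 and 98.5 and RARG had 82.6 and 102. Steroid receptors were low: PGR had 5.28 and 2.18 scaled counts, NR3C1, the glucocorticoid receptor, had 7.85 and 9.20, and ESR1 had 30.2 and 10.8. THRB, a thyroid hormone receptor, was at 0 in both libraries. Of 37 members, 26 had a mean of at least 10 scaled counts, beside 78.7% of all named genes.

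Glucose entered the list of strong genes through SLC2A3, at rank 25. SLC2A1 had 3276 and 3712 scaled counts, SLC2A5, a fructose transporter, had 1785 and 1778, and SLC2A4 and SLC2A2, of muscle and liver, had 184 and 170.3 scaled counts for SLC2A4 and 0 and 2.19 for SLC2A2. Of the hexokinases, HK2 had 3797 and 4374 scaled counts and HK1 had 1128 and 1109. GPI, the next enzyme, had 6982 and 7488 scaled counts, ALDOA had 6651 and 6842, GAPDH had 8920.3 and 6259.5 and PGAM1 had 10042 and 8701.

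Reads for glycolysis were uneven from step to step. The phosphofructokinases were low beside these, with PFKL at 723 and 774, PFKM at 163 and 106 and PFKP at 61.1 and 91.7 scaled counts. TPI1, triose phosphate isomerase, had 59.2 and 50.1 scaled counts and ENO1, enolase, had 1005 and 1142. Processed copies of such genes can take reads, which was not tested here. PKM, pyruvate kinase, had 4455 and 3650.4 scaled counts and PKLR, its liver form, had 3.17 and 6.55. LDHB, the lactate dehydrogenase of heart, had 3353 and 2677 scaled counts, and LDHA, that of muscle, had 470.2 and 283. SLC16A1, a monocarboxylate transporter, had 4132 and 3666 scaled counts and SLC16A3 had 6.34 and 1.09. None of the 30 members with a mean of at least 10 was 2-fold apart, beside 4.72% of all named genes with such a mean.

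The pentose phosphate pathway was well represented. TKT, transketolase of the nonoxidative branch, had 13955 and 16505 scaled counts, and TALDO1, transaldolase, had 6048 and 6348. In the oxidative branch, which yields NADPH, PGLS had 328 and 372 scaled counts and PGD had 4676 and 4219. All 8 genes had a mean of at least 10, beside 78.7% of all named genes, with a list median of 2106 scaled counts.

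Enzymes of pyruvate entry and the citric acid cycle were high as well. PC, which makes oxaloacetate from pyruvate, had 7666 and 8239 scaled counts, and CS, citrate synthase, had 7587 and 7149.6. SDHA had 5594 and 6218 scaled counts and MDH2 had 3615 and 4546. PDHA1, of pyruvate dehydrogenase, had 3395 and 3352 scaled counts. The kinases that switch this enzyme off were PDK3, with 415 and 458, PDK2, with 291 and 261, and PDK1, with 196 and 168 scaled counts, while PDK4 had 2.11 and 2.18. IDH1, the cytosolic isocitrate dehydrogenase, had 7255 and 7243 scaled counts, and the malic enzymes ME1 and ME2 had 24.5 and 12.1 for ME1 and 36.5 and 56.1 for ME2.

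In the respiratory chain, tissue-restricted subunit forms were near 0 and the common forms high. ATP5F1A and ATP5F1B, the core of ATP synthase, had 13997 and 12622 scaled counts for ATP5F1A and 12419 and 12560.1 for ATP5F1B. COX4I1 had 5059 and 4945 scaled counts and COX4I2, its lung form, had 1.09 and 1.86. COX7A2 had 6565 and 5945 scaled counts and COX7A1, its heart and muscle form, had 8.50 and 7.55. COX6A1 had 3731 and 3567 scaled counts and COX6A2, its muscle form, was at 0 in both libraries. CYC1, cytochrome c1 of complex III, had 5941 and 5989 scaled counts. Of 45 nuclear-encoded genes, 32 had a mean of at least 1000 scaled counts, beside 15.2% of all named genes. None of the 42 with a mean of at least 10 was 2-fold apart, beside 4.72% of all named genes with such a mean. Of the 13 mitochondrially encoded genes, 2 were higher in replicate 2 by sign, with a median difference of -0.20 on the log2(value + 1) scale.

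**Figure D5:**
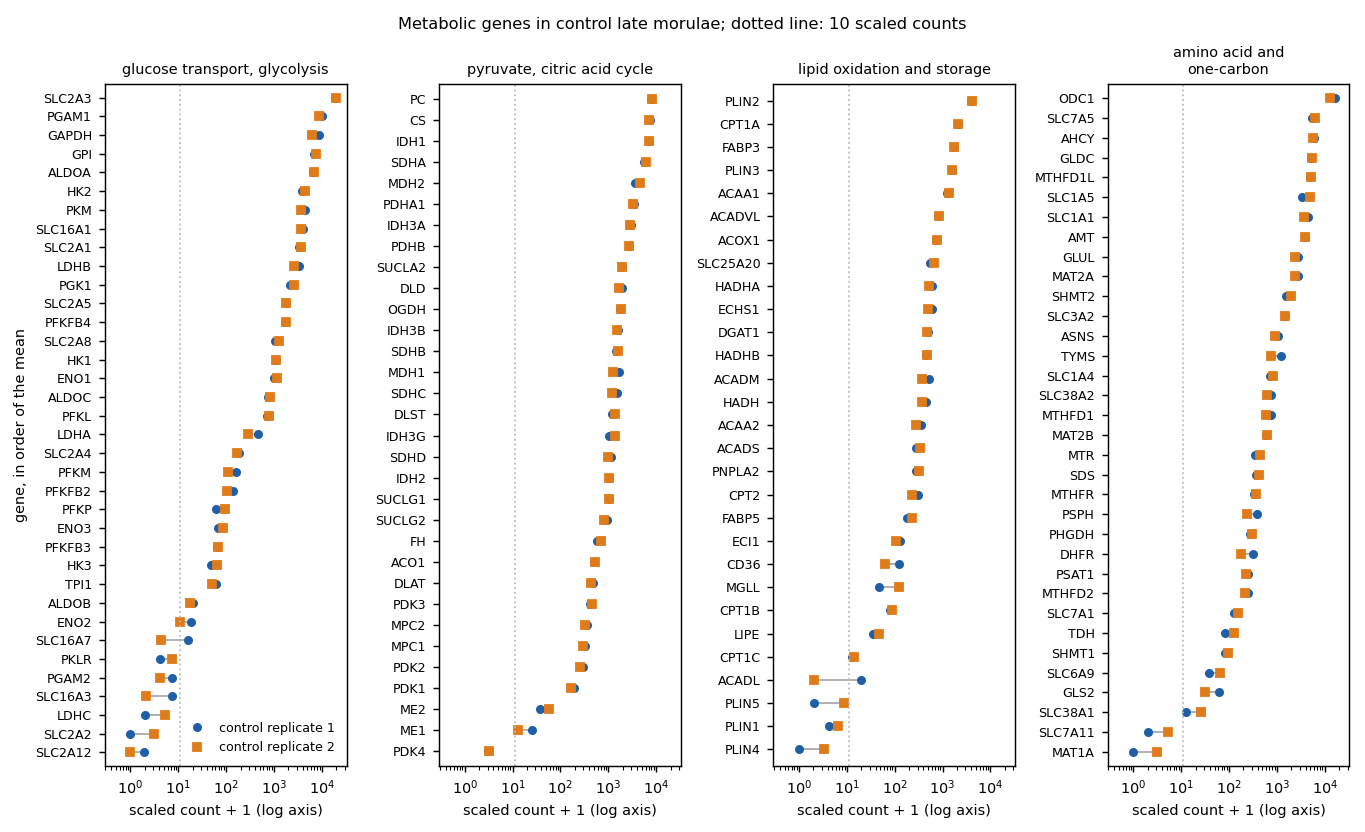
Scaled count + 1 on a log axis for metabolic genes of 4 lists; circles are control replicate 1, squares control replicate 2, and the dotted line marks 10 scaled counts. SLC2A3 leads the first panel, PC the second, PLIN2 the third and ODC1 the fourth, while SLC2A12, PDK4, PLIN4 and MAT1A lie at the bottom.

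Lipid genes covered storage, entry into mitochondria and synthesis. PLIN2, a coat protein of lipid droplets, had 3908 and 4041 scaled counts and PLIN3 had 1579 and 1574, while the fat cell forms PLIN1 and PLIN4 had means below 10. CPT1A, which brings fatty acids into mitochondria, had 2119.8 and 2093 scaled counts and CPT1B, its muscle form, had 80.2 and 85.1. ACADVL, of the first oxidation step, had 785 and 861 scaled counts. ACADL, a long-chain paralogue of ACADVL, had 19.0 and 1.09 and was more than 4-fold apart. FABP3, a fatty acid-binding protein, had 1743 and 1711 scaled counts. On the synthesis side FASN, fatty acid synthase, had 6344 and 5329 scaled counts and ELOVL6, an elongase, had 6839.6 and 5752. ACLY, which supplies cytosolic acetyl-CoA, had 2853 and 2827 scaled counts. SREBF2, the sterol-regulated factor, had 3233 and 4316 scaled counts. All 34 genes of sterol and fatty acid synthesis had a mean of at least 10, beside 78.7% of all named genes.

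Polyamine, glycine and methionine genes led amino acid metabolism. ODC1, which starts polyamine synthesis, had 16725 and 12836 scaled counts. GLDC and AMT, of the glycine cleavage system, had 5269 and 5421 scaled counts for GLDC and 3932 and 3875 for AMT. MTHFD1L, of mitochondrial folate metabolism, had 5026 and 5184 scaled counts and SHMT2 had 1588 and 1955, while SHMT1, the cytosolic form, had 83.4 and 94.9. In the methionine cycle AHCY had 5867 and 5628 scaled counts and MAT2A had 2708 and 2441, and the liver form MAT1A had 0 and 2.19. Serine synthesis was lower: PHGDH had 275 and 305 scaled counts and PSAT1 had 252 and 227.

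Amino acid transporters were led by SLC7A5, which carries large neutral amino acids, with 5418 and 6147 scaled counts. SLC1A5, for glutamine, had 3379 and 4869 scaled counts and SLC1A1, for glutamate, had 4416 and 3726. SLC7A11, the cystine importer that feeds glutathione synthesis, had 1.06 and 4.35. GLUL, glutamine synthetase, had 2809.6 and 2393 scaled counts. Of antioxidant genes, PRDX2 had 5043 and 5025 scaled counts, PRDX1 had 4391 and 3781 and TXNRD1 had 2556 and 2727. NQO1, a target of NRF2, had 20.1 and 20.7 scaled counts, and HMOX1, heme oxygenase, had 66.9 and 58.6. The iron store genes FTH1 and FTL had 12565 and 11449 scaled counts for FTH1 and 4759 and 4655 for FTL.

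Chromatin genes were present throughout: all 32 measured members had a mean of at least 10 scaled counts, beside 78.7% of all named genes. KDM4A, a demethylase of histone H3 lysine 9, had 8495 and 8172 scaled counts, and KDM5B and KDM5C, of lysine 4, had 4481 and 4553 for KDM5B and 4192 and 5837 for KDM5C. EP300, a histone acetyltransferase, had 4994 and 5950.1 scaled counts. HDAC1, a histone deacetylase, had 4702 and 4919 scaled counts. EZH2, the methyltransferase of Polycomb, had 1829 and 1812 scaled counts and its paralogue EZH1 had 147 and 96.4. Both de novo DNA methyltransferases were there, DNMT3A with 2527 and 2249.8 and DNMT3B with 1317 and 1027 scaled counts, and DNMT1 had 1049 and 1167. TET1, which oxidizes methylcytosine, had 1799.5 and 1533 scaled counts, TET2 had 106 and 121, and TET3, the form stored in the egg, had 33.0 and 88.7. TET3 was the 1 member at least 2-fold apart.

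Mitotic genes led the cell cycle list. CDC20 had 4178 and 3949 scaled counts, CCNB1 had 4099.9 and 3644 and CCNA2 had 3067 and 3053. MKI67, a proliferation marker, had 3117 and 2453 scaled counts. TOP2A, the topoisomerase of dividing cells, had 3488 and 2481. CCND1, the cyclin most tied to growth signals, had 8.46 and 9.80 scaled counts, CCND2 had 414 and 208 and CCND3 had 479 and 432. CDK4 had 856 and 849 scaled counts and CDK6 had 215 and 189. RB1, the retinoblastoma protein that D cyclins act on, had 32.7 and 24.0 scaled counts. CDKN1A, an inhibitor of cyclin-dependent kinases, had 259.8 and 193 scaled counts.

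Among apoptosis genes, survival factors differed by paralogue. MCL1 had 3996 and 4015 scaled counts and BCL2L1 had 1565 and 1599.8, while BCL2 had 2.12 and 9.78. The effectors BAK1 and BAX had 1773 and 1668 scaled counts for BAK1 and 830.1 and 774 for BAX. BAD, a sensor that binds BCL2L1, had 1567 and 1409.7 scaled counts. CASP9 had 68.6 and 62.2 scaled counts and CASP8, of the death receptor route, had 3.28 and 1.13. None of the 19 members with a mean of at least 10 was 2-fold apart, beside 4.72% of all named genes with such a mean.

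Markers of other cells that such a pool could hold had list medians below that of all named genes, with single members above it. Of 19 cumulus and granulosa markers, 14 had a mean of at least 10, a share near the 78.7% of all named genes, but 3 reached 100 and the list median was 24.7 scaled counts. Their summed level was 907 and 1047 scaled counts. COL1A1 had 286 and 346 scaled counts, COL1A2 had 138 and 166, CYP19A1, aromatase, had 114 and 119, STAR, which delivers cholesterol for steroid synthesis, had 69.7 and 92.7, and INHA, an inhibin chain of granulosa cells, had 3.17 and 2.18. Of 15 blood and immune markers, 7 had a mean of at least 10, beside 78.7% of all named genes. The 15 markers together summed to 2489 and 3508 scaled counts. Most of this came from CSF1R, the receptor of macrophage growth factor, with 1156 and 1829, and HBA, alpha globin, with 976 and 1344. CD68, a lysosomal protein of macrophages, had 77.2 and 76.2 scaled counts. The defining leukocyte gene PTPRC had 7.39 and 0 scaled counts and HBB, beta globin, had 1.06 and 3.25.

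Of 11 sperm markers, 5 had a mean of at least 10, beside 78.7% of all named genes. The 11 markers together summed to 899 and 850.2 scaled counts. ODF2, which is also a centrosome protein, had 699 and 700.3 of these, SPATA18, which also acts in mitochondrial quality control, had 143 and 97.1, and the protamine PRM1 had 2.14 and 4.32. TNP2, a transition protein of sperm chromatin, had 21.2 and 10.8 scaled counts and ZPBP, a zona-binding protein, had 13.6 and 18.3. ACR and AKAP4 were at 0 in both libraries. Of 10 oviduct and uterus markers, 7 had a mean of at least 10 and 0 reached 100, beside 78.7% and 55.2% of all named genes. Their sum was 184 and 171 scaled counts, and OVGP1, the oviduct glycoprotein, had 50.5 and 42.7. SPP1, osteopontin, had 27.0 and 40.5 scaled counts and UPK1B, a uroplakin, had 29.6 and 33.8. Oocyte transcripts summed to 2407 and 3015 scaled counts. The part of other cells in any level above was not tested.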

How the data were processed

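Polyadenylated RNA of bovine late morulae was sequenced by the submitters, and only the 2 control libraries were used here. The build ARS-UCD1.2 and the tools DESeq2 and Salmon 0.14.1 are named in the submitters' processing notes, without their settings. The deposited table has a signal value for each gene in each library, judged from the values to be reads scaled between libraries by the authors; these are called scaled counts. How transcripts were summed to genes, whether strand was used and which filters were set is not given in the sources used here, so reads of overlapping or antisense genes cannot be told apart.

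Low values lay within 0.1 of a whole multiple of 1.06 in replicate 1 (83.1%) and of 1.09 in replicate 2 (81.6%). These steps were taken as 1 read for the approximate depths, and too few values were whole for reads to be recovered. As a check for 1 library deposited under both names, the approximate reads were compared, with a chi-square of 10.5 per gene over 11948 genes; reads drawn again from 1 library would give about 1. Nothing in the labels says whether they came from separate oocyte collections.

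Of 17922 rows, 2551 without a gene name were left out, and 57 rows that repeat a symbol gave way to the row with the higher mean, and the added GFP and RFP messages were not used for scaling here. No test between groups was made, since 1 group is described. Genes were named as the 30 highest by mean, the highest listed transcription factors and receptors, and members of 29 lists: the highest, those at 0, those at least 4-fold apart, and others as steps of a pathway. Some genes that this rule covers are not reported here. The members and lists were chosen with earlier results of these data known. The step and the 2-fold count were tested on simulated counts. No sequences or transcript lengths were used. Python 3.11.15, pandas 2.3.3 and matplotlib 3.10.9 were used.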

Additional observations from a re-analysis of the deposited data

Results flagged for a closer look

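The highest row of the deposited table carried no gene name and so entered none of the descriptions. It had 156678 and 166243 scaled counts in the control libraries, a mean of 161461, which is above COX1, the highest named gene. It alone held 1.51% and 1.59% of all scaled counts. Rows without a name held 6.97% and 7.22% in all, 1206 of them had a mean of at least 10, and 11 were among the 100 highest of all rows. Which genes these are was not analysed here, and so the order of named genes is not the order of all transcripts.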

How the results depend on the processing

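No paired analysis was possible because 1 group was described and no test between groups was made. The number of genes with a mean of at least 10 (12050) ran from 11986 to 11996 over omitted libraries. The share of the 100 highest genes, 18.3%, ran from 18.2% to 18.4%, and was 19.9% with unnamed rows included. Genes at 0 numbered 868 in replicate 2 alone and 940 in replicate 1 alone, against 431 at 0 in both. Genes at least 2-fold apart numbered 569, or 48 at a minimum mean of 100 and 2036 with no minimum. The median log2(mean + 1) over all list members was 8.29. It ran from 8.30 to 8.31 over omitted libraries, was 8.33 at a pseudocount of 10, and 8.84 over members with a mean of at least 10 alone. Equal totals and summed rows of a symbol moved none of these beyond the spread between the libraries. Scaling per kilobase of coding length was not run, since no lengths were used. Over the single list and gene values the same alternatives moved 61 by more than the spread and left 1960 within it. Leaving out either library of a pair cannot move the mean of a gene beyond the spread between them. For gene values that alternative could not come out otherwise, so the count does not show how firm they are. Levels under about 10 scaled counts rest on few reads.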

Other observations

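Other gene groups, chosen after their values were seen, stood out by level. Creatine handling was one-sided: SLC6A8, the creatine importer, had 10523 and 13968 scaled counts, CKB had 28181 and 30717, and CKMT1A, a mitochondrial creatine kinase, had 4941 and 4499. The enzymes of creatine synthesis were low, with GATM at 35.9 and 20.7 and GAMT at 65.6 and 43.5 scaled counts, and CKM, the muscle kinase, had 0 and 2.18. Fibronectin had its main receptor beside it. ITGA5, the alpha chain that binds fibronectin, had 7529 and 7201 scaled counts and ITGB1, its beta chain, had 2242 and 1892, while ITGAV had 129 and 118. Other matrix proteins of the list were uneven. MFGE8, which binds integrins, had 9091 and 9899.8 scaled counts and TGFBI, an adhesion protein of the matrix, had 7694 and 8204, while TNC, tenascin, had 7.60 and 10.4 and VTN, vitronectin, had 0 and 1.09.

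Some genes known from other tissues had high levels. KRT5, a keratin of basal epidermis, had 5966 and 5511 scaled counts, and KRT14, its usual partner there, had 7.40 and 10.9. VIM, vimentin, had 40.2 and 3.27 scaled counts. HBG, a fetal globin in the table's naming, had 406 and 958 scaled counts beside the high HBA, while HBE1, the embryonic globin, was at 0 in both libraries. The metal importers were uneven: SLC39A4, a zinc importer, had 10709 and 8428 scaled counts and SLC31A1, a copper importer, had 8006 and 7075, while SLC11A2, an importer of iron and other divalent metals, had 496 and 422. The 16 listed subunits of the vacuolar proton pump had a median of 1670.2 scaled counts, and both the ATP6V0A4 and ATP6V0D2 forms, known from acid-secreting cells, were present, with 1894 and 2048 scaled counts for ATP6V0A4 and 2309 and 1907 for ATP6V0D2.

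Among families grouped by symbol, olfactory receptors and chemokines were mostly low, where 78.7% of all named genes reached a mean of 10 scaled counts. Of 17 olfactory receptors 2 reached that mean, and of 33 chemokines and chemokine receptors 7 did. HOX genes and solute carriers lay nearer to the share of all genes. Of 38 HOX genes 27 reached 10, with a median of 27.1 scaled counts, and HOXD9 was the highest with 300.5 and 339. Among 298 solute carriers 207 reached 10 and 37 reached 1000, where 15.2% of all named genes reached 1000. Outside the lists, IGFBP5, a binding protein of insulin-like growth factors, had 235 and 14.2 scaled counts, the highest mean among the 62 genes at least 4-fold apart between the libraries.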
